A study of Rattus norvegicus with 6 samples.

Results

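Mature strands of the related miRNA clusters miR-106b~25 and miR-17~92 were followed through small RNA libraries of rat bone marrow stromal cell vesicles. The members were named strands, 4 from miR-106b~25 (rno-miR-106b-5p, rno-miR-106b-3p, rno-miR-93-5p and rno-miR-25-3p) and 4 from miR-17~92 (rno-miR-17-5p, rno-miR-18a-3p, rno-miR-19b-3p and rno-miR-20a-5p), written below without the species prefix. They are 8 of the 311 distinct mature sequences in the count table. Libraries were made from extracellular vesicles (exosomes) of bone marrow mesenchymal stromal cells of male SD rats aged 4 weeks. In hypoxia the cultures stood at 1% oxygen (n = 3 libraries), and in normoxia at 21% oxygen (n = 3 libraries). Both groups had 5% carbon dioxide and the same medium with 10% fetal bovine serum, at 37 degrees. Whether the 3 libraries of a condition stem from different animals or cultures, or from pools, is not stated, so the p-values rest on the spread between 3 libraries, possibly a technical one. Whether the serum was cleared of its own vesicles is not given in the sources used here.

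A miRNA cluster is transcribed as 1 long primary RNA, from which Drosha cuts several hairpins and Dicer frees the 2 arms of each. The hairpins of a cluster therefore start from 1 transcript, while trimming, loading into Argonaute and decay set how much of each strand a cell keeps, and release into vesicles adds a further step. The miR-106b~25 cluster lies within Mcm7, a gene of the DNA replication helicase, and in the rat gene table (assembly GRCr8) all 3 of its hairpins fall inside that gene. The miR-17~92 cluster is its best-known relative, driven by MYC and E2F factors in proliferating cells, and loss of the human locus impairs skeletal growth. The series title pairs miR-106b-5p with HIF-1α, the oxygen-regulated transcription factor.

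The strands fall into seed groups, the seed being bases 2 to 8, which set most target choice. They are printed 5′ to 3′ with the seed in capitals, because the contrast described here runs between seeds. All 8 members matched a RefSeq entry (GRCr8) with the identical sequence.
miR-106b-5p: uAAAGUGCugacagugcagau
miR-93-5p: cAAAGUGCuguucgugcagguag
miR-17-5p: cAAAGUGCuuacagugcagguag
miR-20a-5p: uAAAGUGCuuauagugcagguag
miR-25-3p: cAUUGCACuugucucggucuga
miR-92b-3p: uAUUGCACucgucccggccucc
miR-19b-3p: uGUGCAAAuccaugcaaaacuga
miR-106b-3p: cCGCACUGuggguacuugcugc
miR-18a-3p: aCUGCCCUaagugcuccuucu
miR-92b-3p is no member and is shown because it was the only other sequence of the table with the seed of any member. No unannotated sequence carried one of these seeds.

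Sequence and origin limit what single strands can say. In RefSeq the miR-106b~25 hairpins lie on chromosome 12 and the miR-17~92 hairpins on chromosome 15. miR-17-5p and miR-19b-3p are also made from hairpins on chromosome X, so only miR-18a-3p and miR-20a-5p come from miR-17~92 alone. miR-17-5p and miR-20a-5p differ at 2 of 23 positions, C1U and C12U, counted from the 5′ end with the base of miR-17-5p first. miR-17-5p and miR-106b-5p differ at 3 of the 21 positions they share, C1U, U10G and G20A. Reads of such close relatives may have been divided unevenly by the counting, and the 4 AAAGUGC strands are therefore also given as a sum. Of the 18 mature strands that RefSeq lists for these clusters, the 8 members had a row here, and the others, among them both arms of miR-92a-1 and miR-19a, were not analysed here.

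Library totals ran from 106954 to 248542 counts and the libraries listed 85 to 183 sequences each. Hypoxia replicate 1 stood apart with 85 listed sequences and the largest scaling factor (1.25, against 0.904 to 0.997 for the others). All 9 mesenchymal stromal markers had a row, with 31.4 to 40.2% of library counts under hypoxia and 28.6 to 43.7% under normoxia. Most of these counts were miR-21-5p, with 24246 to 78530 per library, so the sum mainly reflects that strand. miR-145-5p was not listed in hypoxia replicate 1 or normoxia replicate 1. Of 4 white blood cell markers only miR-150-5p had a row, with 4 counts in hypoxia replicate 3 and 2 in normoxia replicate 3, and the others were not analysed here. Striated muscle markers, 2 of 4 with a row, held 0.134 to 1.89% under hypoxia, highest in hypoxia replicate 1, and 0.324 to 0.487% under normoxia. The endothelial marker miR-126a-3p, 1 of 2 with a row, held 0.0267 to 0.0793% and 0.0423 to 0.0964%.

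The members were far from equal in amount. miR-25-3p had 13552 counts over the 6 libraries, and the other 7 strands had 5 to 100 each. It was the only member listed in every library. Of the 7 scarce strands, 5 were listed in 1 library only, and 47.3% of all 311 sequences were listed in 1 library only. Among annotated sequences with a largest count between 5 and 80, the range of the scarce members, 42 were listed in 1 library (39.6%). None of the 7 scarce members was listed in hypoxia replicate 1. Only 8 annotated sequences of that range were listed there, so most of the range was unlisted in that library too. Being unlisted there therefore does not set the scarce members apart. A mature strand gives 1 tag whatever its length, so no length scaling was applied. Adapter ligation and PCR can favour some sequences over others, which was not measured, so every ratio or share between strands given here is one of tags and need not equal that of molecules.

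**Figure D1:**
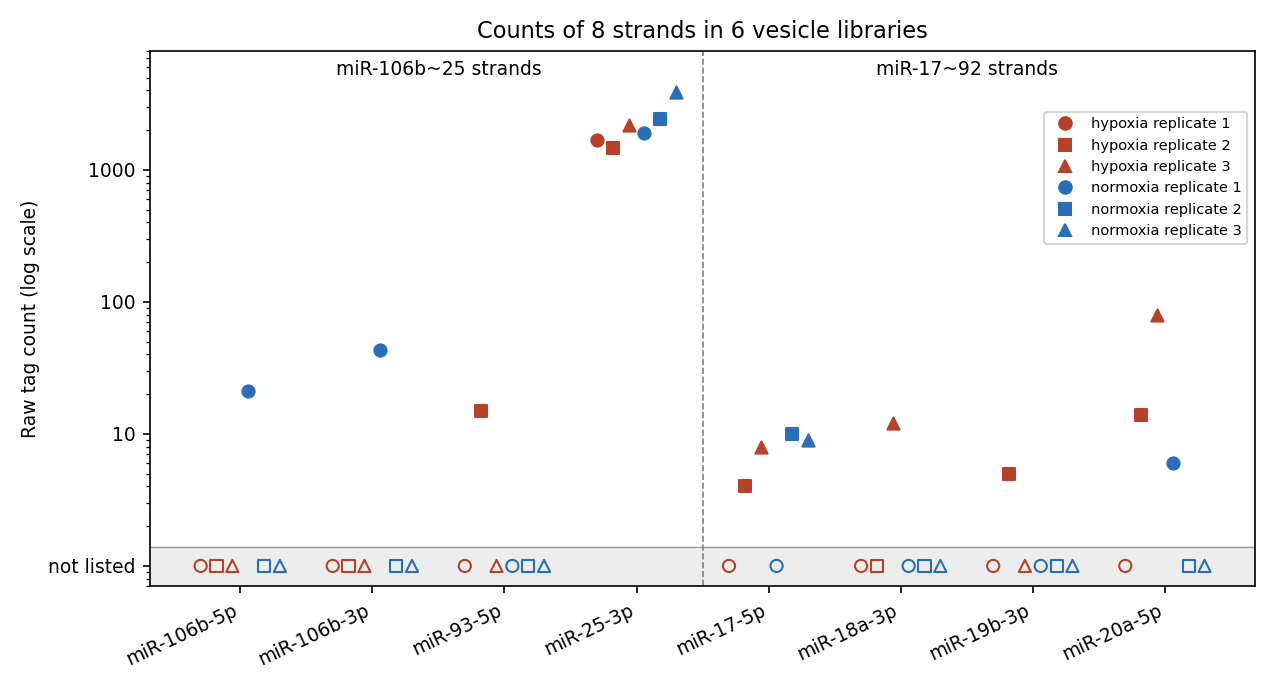
Raw tag counts on a log scale for each member in each library, with open symbols in the grey band for libraries that do not list the strand. miR-25-3p lies between 1473 and 3869 counts in all libraries, and no other member exceeds 80.

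miR-25-3p, a strand known in human cells to target the mitochondrial calcium uniporter MCU, was one of the main vesicle miRNAs. Its counts were 1681, 1473 and 2197 in hypoxia replicates 1 to 3 and 1893, 2439 and 3869 in normoxia replicates 1 to 3. These were 1.42, 1.01 and 0.884% of library counts under hypoxia, and 1.77, 1.19 and 1.70% under normoxia. Hypoxia replicates 2 and 3 lay below every normoxia library, and hypoxia replicate 1 lay above normoxia replicate 2. The exact binomial 95% intervals were narrow, such as 0.848 to 0.922% in hypoxia replicate 3, and leave out all but counting error, as no molecular identifiers are named and PCR copies may be counted separately. Within the libraries it held rank 11 to 17, and by its mean level over libraries it was 13th among the 311 sequences.

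The mean share was 1.10% ± 0.278 (SD, n = 3) in hypoxia libraries against 1.55% ± 0.319 (SD, n = 3) in normoxia libraries, a difference of -0.45 percentage points. A two-sided exact permutation test over libraries gave p = 0.2, where 3 against 3 cannot give a p below 0.1. With each library left out in turn, the difference ran from -0.633 points without normoxia replicate 2 to -0.341 points without hypoxia replicate 3. Without hypoxia replicate 1 it was -0.607 points. Set against miR-21-5p, the most abundant sequence in every library, miR-25-3p had 6.93, 3.15 and 3.16 counts per 100 counts of miR-21-5p under hypoxia and 6.24, 5.83 and 4.93 under normoxia. In bulk vesicle RNA, fewer vesicles that carry a strand and less of it per vesicle cannot be told apart. By the miR-21-5p measure hypoxia replicate 1 was the highest of all libraries and the other hypoxia libraries the lowest.

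With TMM scaling, which corrects for composition, the levels were 11440.5, 10953.7 and 8909 CPM (counts scaled to a common library total of 1000000) under hypoxia and 18442.9, 12011 and 18924.7 under normoxia. The groups did not overlap on this scale, where 7.48% of 107 tested sequences had groups apart with lower hypoxia values and 0% with higher ones. They did not overlap with upper-quartile factors either, where 4.67% of sequences lay apart as lower and 1.87% as higher. They overlapped on library totals, where 4.67% lay apart as lower and 2.8% as higher, and with RLE factors, where 5.61% lay apart as lower and 0.935% as higher. Hypoxia differed from normoxia by a log2 fold change of -0.66 (SE 0.34, 95% interval -1.39 to 0.08) in edgeR's quasi-likelihood test, with a Benjamini-Hochberg adjusted p of 0.998. That test called 0% of the 107 sequences higher and 0% lower, with 1 sequence at an unadjusted p under 0.05. The TMM-scaled means were 10434 ± 1343 CPM (SD, n = 3) under hypoxia and 16459.5 ± 3860 CPM (SD, n = 3) under normoxia, a gap wider than the SD of either group. The interval of the fold change nevertheless holds 0, and the difference did not pass the test. The SE and interval were derived from the fold change and the statistic of edgeR's test. They restate its unadjusted result and are no separate evidence.

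**Figure D2:**
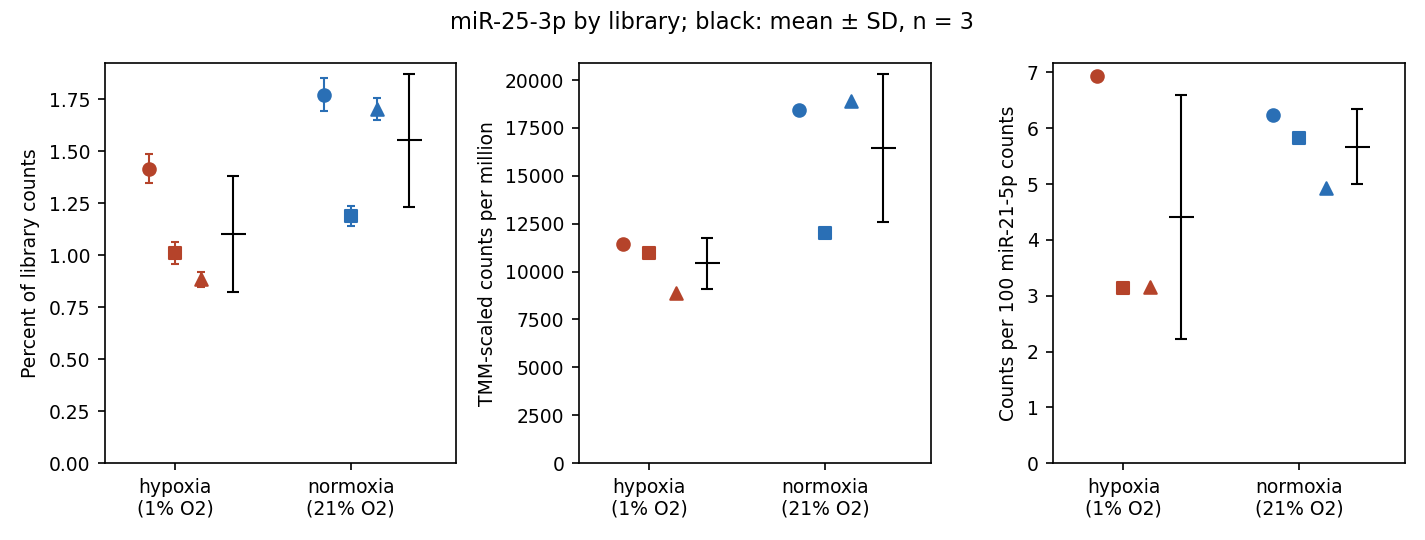
miR-25-3p in each library as percent of library counts with exact 95% binomial intervals, in TMM-scaled CPM, and per 100 counts of miR-21-5p. Circles, squares and triangles are replicates 1, 2 and 3, and black bars give mean ± SD of 3 libraries. The groups are apart only in the middle panel, where the highest hypoxia value is 11440.5 and the lowest normoxia value 12011.

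The sign was the same in every fit, but the fits reuse the same libraries and are not independent of one another. Over 18 alternative fits, among them other scaling factors, DESeq2, limma-voom, the authors' normalized values and each library left out in turn, the log2 fold change ran from -0.79 without normoxia replicate 2 to -0.42 without hypoxia replicate 3. It was -0.50 without hypoxia replicate 1. Each interval follows the unadjusted test of its own fit and is no separate evidence. All 19 intervals held 0, and adjusted p-values over these alternatives ran from 0.421 to 1.0.

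**Figure D3:**
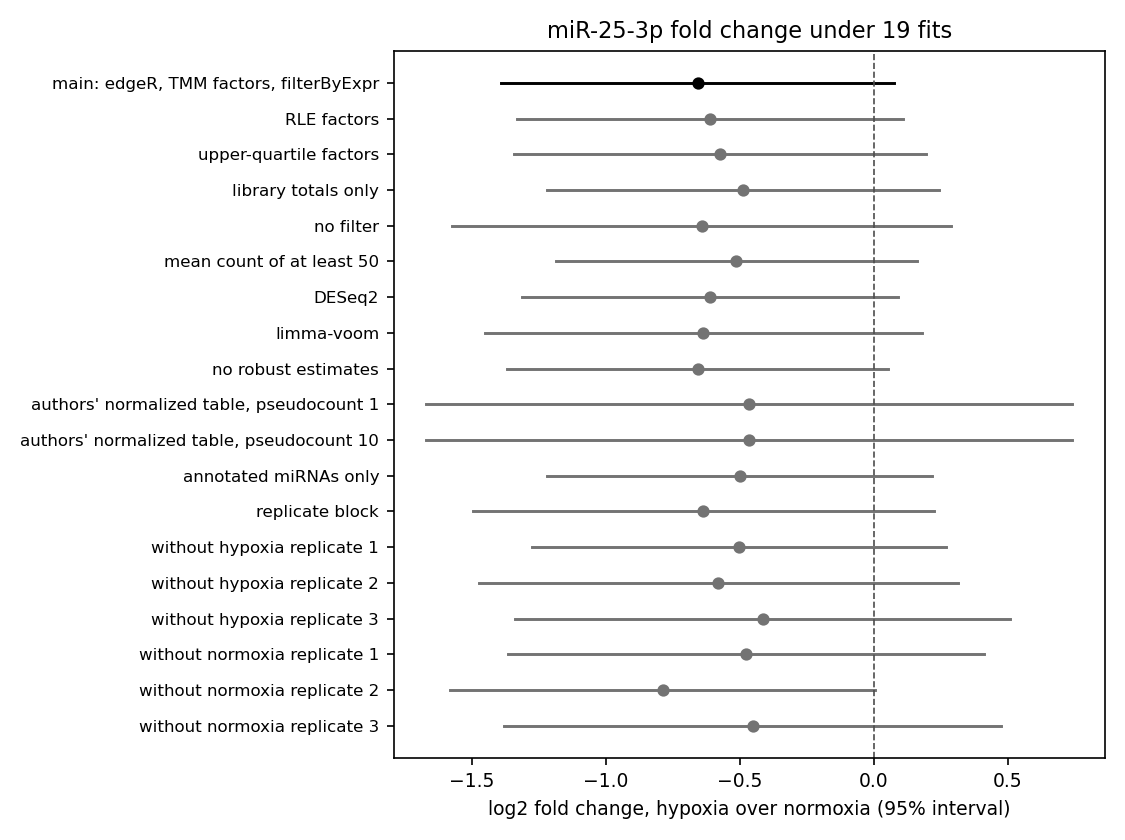
Log2 fold change of miR-25-3p, hypoxia over normoxia, with 95% intervals under the edgeR fit (black) and 18 alternatives (grey). Every point lies below 0 and every interval crosses it.

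Sequences at a like level gave values of both signs. The nearest in mean level were miR-99b-5p at -0.36 (SE 0.36), miR-99a-5p at 0.21 (SE 0.41) and let-7d-5p at -0.23 (SE 0.48) on the log2 scale. The next were miR-24-3p at -0.59 (SE 0.40) and miR-27b-3p at 0.22 (SE 0.40). None of the 5 passed edgeR's test, with an adjusted p of 0.998 each. Across the 6 libraries, the pattern of miR-25-3p on log2 TMM-scaled values was most like that of miR-361-3p among 55 other sequences listed in all libraries (Pearson r = 0.75). It was followed by miR-125b-5p (r = 0.64), miR-676 (r = 0.53), miR-100-5p (r = 0.50) and miR-181b-5p (r = 0.48), while the median r of the 55 was 0.0057. These values describe 6 libraries that share their scaling, and r for miR-676 was 0.92 without hypoxia replicate 1 and r for miR-100-5p 0.32 on library totals.

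Of the 4 red blood cell markers 3 had a row, and their sum was 0 to 0.0567% of counts under hypoxia and 0.0253 to 0.103% under normoxia. miR-451-5p, the defining one, was listed in hypoxia replicate 3 and normoxia replicate 2 only, with 20 and 24 counts. Counts of miR-486 were 0, 64 and 98 in the hypoxia libraries and 99, 28 and 103 in those of normoxia, and those of miR-144-5p were 0, 5 and 23 against 11, 0 and 24. The liver and serum marker miR-122-5p held 0.499 to 0.787% under hypoxia and 0.464 to 0.905% under normoxia. Their part in the level of miR-25-3p was not tested.

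Strands from the same primary transcript were then set against miR-25-3p inside each library. In hypoxia replicates 1 and 3 and normoxia replicates 2 and 3, miR-25-3p was the only strand of miR-106b~25 with a count. In hypoxia replicate 2 it made up 98.99% of the 1488 cluster counts (95% interval 98.3 to 99.4%), the remaining 15 being miR-93-5p. In normoxia replicate 1 it made up 96.7% of 1957 counts (95% interval 95.8 to 97.5%), beside both arms of miR-106b. Its mean share of the cluster was 99.7% ± 0.582 (SD, n = 3) in hypoxia libraries against 98.9% ± 1.89 (SD, n = 3) in normoxia libraries, with overlapping ranges.

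miR-106b-5p, the strand in the series title, had 21 counts in normoxia replicate 1 and none listed in the other 5 libraries. That library had the smallest total of all, and 21 counts were 196 CPM of the library total (0.0196%, 95% interval 0.0122 to 0.0300%). At an equal share, the totals of the other libraries would give 23.3 counts in hypoxia replicate 1, 28.7 in hypoxia replicate 2 and 48.8 in hypoxia replicate 3. They would give 40.3 in normoxia replicate 2 and 44.6 in normoxia replicate 3. The smallest count a library lists is 7 in normoxia replicate 2 and 2 elsewhere, which is not a known detection limit. The share comes from the only library that lists the strand, so these figures may be too high. Why the other libraries do not list it was not tested. For every count of miR-106b-5p in normoxia replicate 1 there were 90.1 counts of miR-25-3p (95% interval 58.8 to 146). In total 15 sequences, 8 of them annotated, were listed in that library and in no other.

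The opposite arm of the same hairpin, miR-106b-3p, had 43 counts in normoxia replicate 1 alone. The arms thus stood at 67.2% for the 3p strand (95% interval 54.3 to 78.4%), although miR-106b-5p is the arm usually described as the guide. miR-25-3p exceeded miR-106b-3p there by 44.0 to 1 (95% interval 32.6 to 61.0).

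miR-93-5p, which in mouse osteoblasts targets the bone transcription factor Sp7, had 15 counts in hypoxia replicate 2 and none listed elsewhere. An equal share, taken from the only library that lists it and so possibly too high, would give 11.0 to 25.5 counts in the other libraries. miR-25-3p exceeded it by 98.2 to 1 in hypoxia replicate 2 (95% interval 59.3 to 176). That library listed the most sequences, 183, of which 46 were listed in no other library. None of these 3 scarce strands passed the filter on low counts, and no fold change is given for them.

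The miR-17~92 strands were also scarce, with 148 counts over all libraries. Their sum was 0, 23 and 100 counts in hypoxia replicates 1 to 3 and 6, 10 and 9 in normoxia replicates 1 to 3. The mean level was 187 ± 203 CPM (SD, n = 3), here per library total, in hypoxia libraries against 48.1 ± 8.25 CPM (SD, n = 3) in normoxia libraries. Hypoxia replicate 3 lay highest and hypoxia replicate 1 lowest, so the normoxia values fell inside the hypoxia range. The hypoxia mean was 78.8 CPM without hypoxia replicate 3 and 280 CPM without hypoxia replicate 1. In normoxia replicates 2 and 3 the sum was miR-17-5p alone, which is also made from a hairpin on chromosome X. Those counts therefore cannot be assigned to miR-17~92 with certainty.

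miR-20a-5p, which promotes bone formation in human stromal cells through PPARG and BMP inhibitors, was the main strand of this group. Hypoxia replicates 1 to 3 gave 0, 14 and 80 counts of it, and normoxia replicates 1 to 3 gave 6, 0 and 0. The groups overlapped, and 80 of its 100 counts came from hypoxia replicate 3. Counts of miR-17-5p were 0, 4 and 8 in the hypoxia libraries, against 0, 10 and 9 in those of normoxia. It was the most widely listed of the scarce members, in 4 libraries, with levels from 27.4 to 48.7 CPM.

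The 2 strands differed in their balance between libraries. miR-20a-5p exceeded miR-17-5p by 14 to 4 counts in hypoxia replicate 2 and by 80 to 8 in hypoxia replicate 3, or 90.9% of their sum (95% interval 82.9 to 95.99%). In normoxia replicates 2 and 3 only miR-17-5p was listed, with 10 and 9 counts, and in normoxia replicate 1 only miR-20a-5p, with 6. The libraries that listed no miR-20a-5p would hold 38.2 counts in hypoxia replicate 1, 66.1 in normoxia replicate 2 and 73.1 in normoxia replicate 3 at its share in hypoxia replicate 3. At its share in hypoxia replicate 2 they would hold 11.4, 19.7 and 21.8 counts, and at that in normoxia replicate 1 they would hold 6.66, 11.5 and 12.7. miR-18a-3p, the 3p arm of its hairpin, had 12 counts in hypoxia replicate 3 alone. miR-19b-3p had 5 counts in hypoxia replicate 2 alone.

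Summed by seed, the AAAGUGC strands reached 0, 33 and 88 counts in the hypoxia libraries and 27, 10 and 9 in those of normoxia. Their mean level was 193 ± 179 CPM (SD, n = 3) in hypoxia libraries against 114 ± 120 CPM (SD, n = 3) in normoxia libraries, with overlapping groups. The hypoxia mean was 290 CPM without hypoxia replicate 1 and 113 CPM without hypoxia replicate 3, and the normoxia mean 44.1 CPM without normoxia replicate 1. The strand that led the sum changed from library to library. It was miR-93-5p in hypoxia replicate 2, by 15 counts to 14 of miR-20a-5p, then miR-20a-5p in hypoxia replicate 3, miR-106b-5p in normoxia replicate 1 and miR-17-5p in normoxia replicates 2 and 3. The AUUGCAC seed reached 1681, 1477 and 2197 counts in the hypoxia libraries and 1893, 2439 and 3882 in those of normoxia, nearly all from miR-25-3p. miR-92b-3p, which shares that seed and differs from miR-25-3p at 6 of 22 positions, added 4 counts in hypoxia replicate 2 and 13 in normoxia replicate 3. Of the counts of both seeds, AAAGUGC strands made up 0% in hypoxia replicate 1 (0 of 1681 counts), 2.19% in hypoxia replicate 2, 3.85% in hypoxia replicate 3, 1.41% in normoxia replicate 1, 0.408% in normoxia replicate 2 and 0.231% in normoxia replicate 3. The lowest and the highest share were both in hypoxia libraries, so the groups overlapped.

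**Figure D4:**
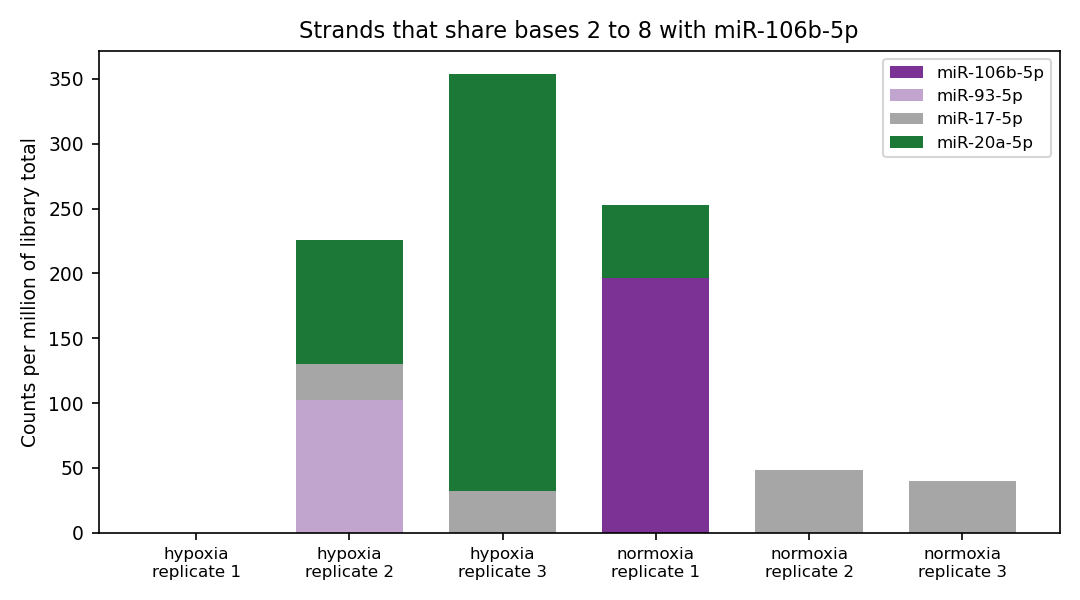
Stacked bars of CPM of library total for the 4 strands with the seed of miR-106b-5p. The tallest bar is hypoxia replicate 3, mostly miR-20a-5p at 322 CPM, and hypoxia replicate 1 has no listed strand.

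The imbalance was set beside other polycistronic clusters, as a description with no test. In 20 clusters with at least 2 listed strands, the leading strand held a median of 81.4% of the cluster's summed counts. It held a median of 94.1% in the 11 clusters whose strands each come from 1 listed precursor. Elsewhere, a strand of several precursors was counted in full in each cluster that holds it. One such strand is miR-24-3p, in miR-23a27a24 and miR-23b27b24. The median of 81.4% therefore includes shares that are not of 1 transcript alone. In miR-106b~25 the leading strand, miR-25-3p, held 99.4%, the highest of the 20. Clusters with fewer than 2 listed strands were left out, since a single listed strand would hold 100% by definition. Next were miR-143~miR-145, led by the smooth muscle and stromal miR-143-3p with 97.8%, and miR-30d~30b, led by miR-30d-5p with 97.1%. In miR-199a~miR-214, a stromal cluster, miR-199a-3p held 96.6%. Per library, miR-25-3p held 96.7 to 100% of its cluster, miR-143-3p 93.3 to 100%, miR-30d-5p 91.9 to 100% and miR-199a-3p 95.6 to 98.2%. These ranges overlapped, and in hypoxia replicate 1 miR-143-3p and miR-30d-5p held 100%, like miR-25-3p. Clusters of few counts give wide ranges, as miR-17~92 shows, where miR-20a-5p held 67.6% of all counts and 0 to 100% in single libraries.

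**Figure D5:**
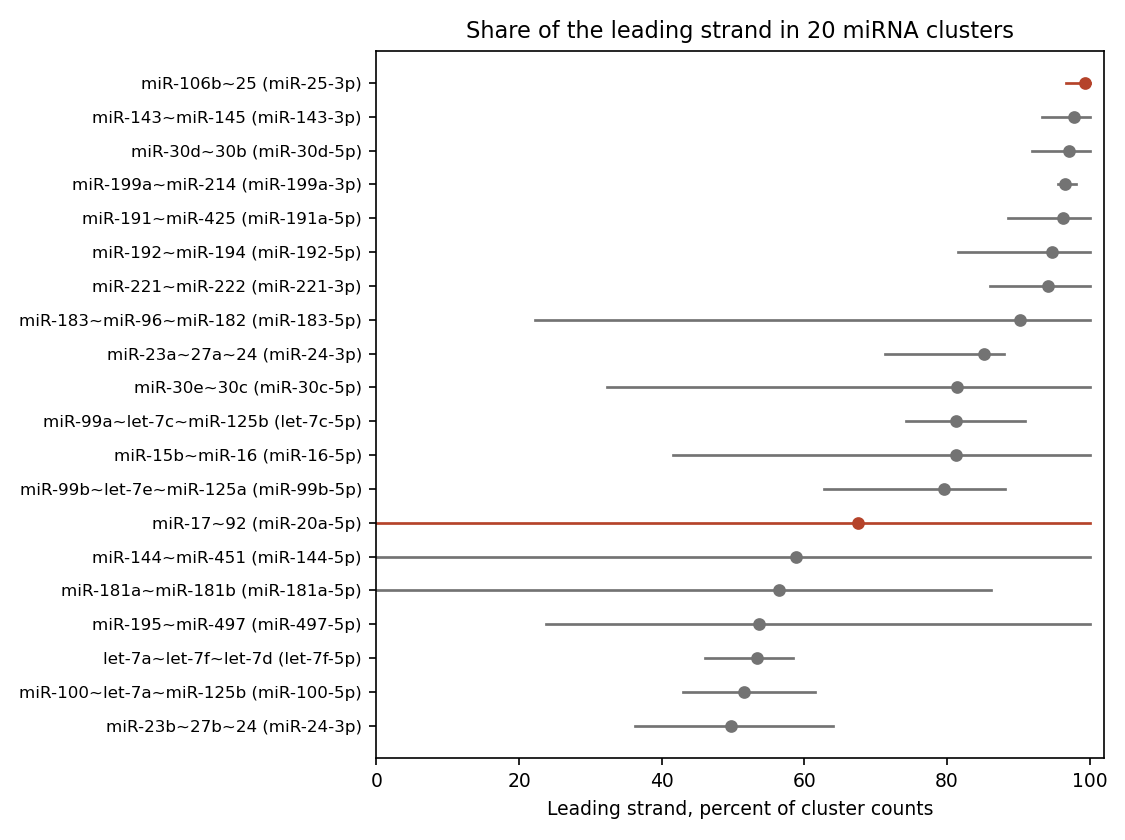
Share of the leading strand in the counts of 20 clusters with at least 2 listed strands, summed over libraries (points). Lines give the lowest and highest library. The leading strand is in brackets and the clusters described here are in red. miR-106b~25 stands at the top with 99.4%, and miR-17~92 spans 0 to 100%.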

How the data were processed

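Per the file headers, the authors deposited raw tag counts per mature miRNA and precursor for 6 libraries, and a table of normalized tag counts by an unstated method, treated here as a score. The submitters' processing notes name build rn6 and the tools Novoalign 3.02.12 and cutadapt 1.9.3. A counting program, annotation release or filter was not given in the sources used here. Rows (353) were merged to 311 distinct sequences, and repeated rows never differed. A blank was taken as 0. The smallest listed count was 2, so the table may hold only values above a minimum, and no upper limits are given for unlisted strands.

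filterByExpr (minimum count 10, total 15) kept 107 sequences, miR-25-3p alone among the members. edgeR 4.0.16 in R 4.3.3 was fitted to these, without a replicate block, with TMM factors, robust quasi-likelihood estimates and Benjamini-Hochberg adjustment at 0.05. A run on simulated counts used a smaller spread between libraries than these data have and larger fold changes than that of miR-25-3p. It does not show how the test behaves here. Alternatives used DESeq2 1.42.0 and limma 3.58.1. Exact permutation tests and exact binomial intervals used scipy 1.17.1. Total counts per library (106954 to 248542) limit precision for scarce strands.

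The members, marker and cluster lists and tests were chosen with earlier results of these data known. Named besides the members were sequences sharing a seed with one, the 5 most like miR-25-3p by Pearson r, the 5 nearest in mean level, marker miRNAs and the leading strands of clusters. RefSeq tables of GRCr8 gave names, hairpins and sequences; since that build differs from rn6, no coordinates are given. In libraries with no strand of a cluster, shares within it were not computed.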

Additional observations from a re-analysis of the deposited data

How the results depend on the processing

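The log2 fold change of miR-25-3p kept its sign under all 18 alternatives and passed the threshold in none. With each library left out in turn it was -0.79 to -0.42, and with the replicate block -0.64 (adjusted p 0.990 in edgeR). Replicate numbers were not shown to pair libraries, since deviations of same-numbered libraries correlated at 0.23, 0.031 and 0.12, and hypoxia replicate 2 was closest to normoxia replicate 3. The difference in its share of counts ran from -0.69 to -0.341 percentage points over 10 alternatives. With the replicate block, the exact test gave p = 0.25, the smallest that 3 pairs allow, and without 1 library the smallest is 0.2. The count of called sequences was 0 in both directions, except for 1 lower with limma on the authors' normalized table and a pseudocount of 1, an unannotated sequence. The cause was not tested. Without a filter no member was called, with adjusted p-values from 0.421 to 0.980 in edgeR. Without their only listing library, miR-106b-5p, miR-106b-3p, miR-93-5p, miR-18a-3p and miR-19b-3p are listed in 0 libraries. Without hypoxia replicate 1, TMM values lay apart for 10 of 107 sequences as lower and 8 of 107 as higher under hypoxia. With all libraries these were 8 and 0 of 107. Groups of 2 against 3 libraries lie apart by ordering alone more often than 3 against 3, so these counts are not directly comparable. The scaling and left-out-library checks on miR-17~92 sums, on likeness and on non-overlapping groups were chosen after seeing the data. The median log2 fold change of all tested sequences was -0.14 with TMM, -0.02 with upper-quartile factors and 0.15 without hypoxia replicate 1. The 7 strands other than miR-25-3p had at most 80 counts in any library, which limits the precision of their values.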

Other observations

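The arm balance of miR-106b was set beside that of other hairpins. In 32 annotated hairpins with both arms listed and 1 listed precursor, the major arm held a median of 93.4% of the counts of both arms, summed over libraries. The major arm held under 70% in 3 of them, miR-140, miR-3559 and miR-106b. For miR-106b it held 67.2%, with a 95% interval of 54.3 to 78.4% that crosses this cutoff. Close above the cutoff lay miR-455 at 71.0%, miR-195 at 71.9% and miR-132 at 72.4%. In miR-140, a cartilage miRNA listed with both arms in all 6 libraries, the arms had 392 counts for 5p and 352 for 3p. In miR-106b and in miR-3559 both arms were listed together in 1 library. More counts lay on the 3p than on the 5p arm in 20 of the 32. These hairpins were picked out after their values were seen.

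In the authors' deposited table of normalized values, a score, normoxia replicate 1 had 49 for miR-106b-5p and 101 for miR-106b-3p. The members were listed there in the same libraries as in the raw counts.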
